A study of Rattus norvegicus with 34 samples.

Results

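The mitosis and spindle genes described here are 60 genes whose products drive, build or check the division of the copied chromosomes, and their transcript levels were compared in rat kidney cells, kidney and liver exposed to monuron. The members were chosen by name, with earlier results of these data known, and sorted into 9 roles. They were found among the 14217 named genes of the arrays by the symbol that the array annotation gives each probe set. Shares of members set against all genes therefore describe this list and are not independent support. Of the 60, 54 matched a probe set annotated with 1 symbol, and Cdc25c, Nek2, Kif4a, Tpx2, Anln and Ndc80, which matched none, are not analysed here. Levels are GCRMA values on the log2 scale, so a difference of 1 is a doubling, and values of different genes are not compared with each other. Testing was limited to genes whose probe set exceeded the array's median on 3 or more cell arrays, or on 4 or more arrays of an organ, and a call is an adjusted p under 0.05 from limma over all genes tested.

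The 34 arrays came from NRK-52E cells, an epithelial line derived from the kidney of an Osborne-Mendel rat, and from the organs of male Wistar-derived rats, aged 7 to 9 weeks and weighing 190 to 240 g. The cell groups, with 3 arrays each, were grown to confluence and labelled monuron or DMSO (0.1%) at 6, 24 and 72 h. The kidney and liver groups, with 4 arrays each, came from rats given monuron in corn oil (40 mg/kg on day 1, then 400 mg/kg on days 2 and 3) or corn oil alone at 5 ml/kg, and the protocol has both organs taken from each rat, though the labels do not tie a kidney to a liver. The cell protocol gives the compound as CHL where the labels name monuron, a phenylurea herbicide, so what the cells received and at which concentration is uncertain. The tissue labels give 72 h, whereas the protocol places death that long after the final dose. Of 15 kidney epithelium markers on the array, 15 lay above the array median on every kidney array, but only Krt8 and Cdh2 did so in NRK-52E cells. All 10 hepatocyte markers lay above it in liver.

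As a cell enters mitosis, cyclin B bound to Cdk1 condenses the chromosomes and starts the building of the spindle. The spindle checkpoint holds the anaphase-promoting complex until every kinetochore is attached, after which Cdc20 lets the complex mark securin and cyclin B for destruction. Most genes of this programme are transcribed in G2 and M phase and are repressed in resting cells, so their levels in a tissue are widely used as a measure of dividing cells. In bulk samples, fewer dividing cells and less RNA per dividing cell cannot be told apart.

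The promoters of these genes shared letters that the choice of members had not used. Genes of G2 and M phase are known for the CHR, a short element near the start that repressor and activator complexes bind, and for CCAAT boxes, to which NF-Y binds. In the RefSeq promoters (GRCr8, 250 bases before the start and 50 from it on), 53 members had a match, with 54 promoters since Kif2c has 2. The CHR, searched as TTTGAA or TTCGAA on both strands, stood in 37 of the 54 (68.5%) and in 19.7% of all 33469 promoters. CCAAT, on both strands, stood likewise in 37 of the 54 (68.5%) and in 37.5% of all promoters, and 2 or more CCAAT boxes in 26 of the 54 (48.1%) and in 11.2% of all. Both elements occurred together in 28 of the 54 (51.9%), against 7.95% of all promoters. An E2F word (TTTCCCGC, TTTGGCGC, TTTCGCGC or TTTGCCGC, both strands) stood in 2 of the 54 (3.70%) and in 2.14% of all. None of these words contains another, and a match is a description of letters, not of binding.

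The 250 bases before the start are printed for 4 members that were lower in more than 1 setting and for both members that were higher in monuron cells at 72 h, since the elements can be read in them directly. They are Cdk1 (chr20:19265043-19265292, plus strand), Ccnb2 (chr8:79981659-79981908, minus strand), Cdc20 (chr5:137255800-137256049, minus strand), Top2a (chr10:84473094-84473343, minus strand), Cenpk (chr2:37094017-37094266, plus strand) and Cks1b (chr2:177135334-177135583, minus strand). Capitals mark CHR and CCAAT words on either strand, and each sequence reads 5′ to 3′ towards the gene.
Cdk1: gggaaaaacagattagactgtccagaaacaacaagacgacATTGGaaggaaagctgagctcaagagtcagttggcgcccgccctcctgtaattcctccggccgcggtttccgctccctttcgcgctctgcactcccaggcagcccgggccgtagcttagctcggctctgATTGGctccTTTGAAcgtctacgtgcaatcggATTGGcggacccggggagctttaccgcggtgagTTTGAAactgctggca
Ccnb2: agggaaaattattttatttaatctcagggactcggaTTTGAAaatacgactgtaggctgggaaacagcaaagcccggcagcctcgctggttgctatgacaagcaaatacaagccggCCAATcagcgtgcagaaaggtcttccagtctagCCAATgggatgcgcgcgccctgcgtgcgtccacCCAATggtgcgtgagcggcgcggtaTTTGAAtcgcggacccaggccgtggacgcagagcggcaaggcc
Cdc20: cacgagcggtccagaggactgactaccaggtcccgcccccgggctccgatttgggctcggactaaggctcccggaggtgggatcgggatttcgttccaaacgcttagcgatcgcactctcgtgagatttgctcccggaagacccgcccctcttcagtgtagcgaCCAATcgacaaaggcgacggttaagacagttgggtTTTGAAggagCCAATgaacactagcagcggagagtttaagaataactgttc
Top2a: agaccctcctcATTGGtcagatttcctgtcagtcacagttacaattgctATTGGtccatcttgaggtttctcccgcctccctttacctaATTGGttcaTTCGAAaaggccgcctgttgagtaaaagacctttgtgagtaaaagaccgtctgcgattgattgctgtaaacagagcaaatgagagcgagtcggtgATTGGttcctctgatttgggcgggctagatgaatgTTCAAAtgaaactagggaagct
Cenpk: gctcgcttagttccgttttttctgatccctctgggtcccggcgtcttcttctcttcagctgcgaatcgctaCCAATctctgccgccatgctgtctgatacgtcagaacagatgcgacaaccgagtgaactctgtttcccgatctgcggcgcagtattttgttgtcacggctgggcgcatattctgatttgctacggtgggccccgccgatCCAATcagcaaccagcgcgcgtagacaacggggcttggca
Cks1b: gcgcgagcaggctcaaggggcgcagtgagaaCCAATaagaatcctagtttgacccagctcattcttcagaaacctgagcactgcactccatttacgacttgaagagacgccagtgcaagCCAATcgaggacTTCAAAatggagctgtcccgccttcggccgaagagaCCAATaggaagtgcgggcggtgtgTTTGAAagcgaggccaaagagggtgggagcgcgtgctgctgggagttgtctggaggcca

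Ccnb2 carried CCAAT at -134, -101 and -68 and CHR words at -214 and -43, counted with the base before the start as -1. In Cdc20 a CHR at -51 lay between CCAAT boxes at -86 and -41, and Cdk1 had reversed CCAAT boxes at -210, -81 and -49, CHR words at -72 and -16 and 1 of the E2F words, left in lower case, at -133. Cenpk, which was higher at 72 h, had CCAAT boxes at -179 and -40 and no CHR word in this window, while Cks1b had 3 CCAAT boxes and 2 CHR words. At 72 h the median log2 difference was -0.84 over the 32 tested members with a CHR word and -1.06 over the 15 without. In kidney it was -2.05 over 28 members with and -2.53 over 11 without. The median was no lower with the word than without it in either setting, and no test was made.

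Some arrays stood apart in these genes. Of the 53 members tested in cells, 49 had their lowest value of the group on replicate 3 of monuron at 72 h, and 46 on replicate 1 of DMSO at 72 h. In liver, 18 of the 23 tested members were highest on control replicate 4. In kidney, 32 of the 43 tested members were lowest on monuron replicate 2 and 31 highest on monuron replicate 4.

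In kidney most tested members were lower. Of the 43 members tested there, 37 fell in monuron rats and 0 rose, and the median log2 difference was -2.23, against -0.08 over all 9542 genes tested. Of all genes tested, 6.34% were lower. Each of the 9 roles held members that fell, and calls numbered 35 without monuron replicate 2 and 38 without monuron replicate 4, all of them lower. Among the tested members, 10 passed the filter on low values only through the controls (Bub1, Cdc20, Dlgap5, Kif18b, Knstrn, Ncapd2, Nuf2, Plk4, Ttk and Ube2c), so a difference was built into their choice and its exact size is not measured. With values under the array median set to it, Dlgap5 (-0.60, adjusted p = 0.098) and Plk4 (-1.17, adjusted p = 0.0533) were no longer called, and the other 8 were called at -2.95 to -0.68. Among the other 33, the lowest differences were those of Prc1, Kif22, Cdca3, Pttg1 and Cdk1, between -3.36 and -2.98. Prc1, Cdca3, Aurka, Kif20a, Kif23 and Racgap1 lay above the array median on only 2 of the 4 monuron arrays, and Kif22, Ccnb1, Spc24 and Top2a on 3. The exact size of their differences is not measured either. Of these 33 members, which were above the array median on at least 2 arrays of each group, 27 fell, with a median of -2.07. Without the filter, 37 of the 54 fell, where 3.09% of all genes did.

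Among the cyclins and kinases of mitosis, 8 of the 10 tested members fell in kidney. Cdk1, the kinase that drives entry into mitosis, had log2 levels of 6.49, 5.60, 5.94 and 7.20 in the 4 monuron kidneys, against 9.65, 8.82, 9.48 and 9.21 in the 4 control kidneys. No value overlapped, and the lowest control stood well above the highest monuron kidney, a log2 difference of -2.98 (SE 0.32, adjusted p = 0.0012), or 7.9-fold. Its cyclin partner Ccnb2 stood at 6.95, 5.83, 6.30 and 6.79 in monuron kidneys, against 8.78, 8.50, 9.14 and 8.81 in controls, again with no overlap (-2.34, SE 0.24, adjusted p = 9.89e-04). Ccnb1 read 4.80, 3.73, 3.92 and 4.12 in monuron kidneys, against 7.09, 6.40, 7.05 and 6.16 in controls, and every monuron kidney was below every control, at -2.53 (SE 0.28, adjusted p = 0.0014). A second probe set of Ccnb1 gave -3.00. Cks2, a small subunit of the Cdk complexes, stood at 9.19, 8.25, 8.69 and 8.91 in monuron kidneys, against 10.57, 10.01, 10.53 and 10.47 in controls. Its groups were apart too, by -1.63 (SE 0.20, adjusted p = 0.002). The other called members were Aurka, the centrosome kinase, at -2.64, the S-phase and mitotic cyclin Ccna2 at -2.52, Cks1b at -1.06 and Plk4, the kinase of centriole copying, at -1.88.

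Plk1, a kinase needed from mitotic entry to cytokinesis, was not tested in kidney. Its levels were 2.57, 2.52, 2.55 and 2.82 in the 4 monuron kidneys, against 3.59, 2.55, 4.12 and 3.04 in the 4 control kidneys. Only 1 control value lay above its array median, the groups overlapped, and without the filter the difference was -0.71 (SE 0.29, adjusted p = 0.206). Both tested members of this role that were not called differed in sign, Melk, a kinase of dividing cells, at 0.78 (SE 0.27, adjusted p = 0.0883), and Cdc25b, a phosphatase that activates Cdk1, at -0.39 (SE 0.31, adjusted p = 0.429). Melk was above the array median on all 8 kidney arrays, and its groups overlapped.

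The inner centromere kinase Aurkb had levels of 4.05, 3.97, 4.03 and 4.55 in the 4 monuron kidneys, against 6.14, 5.05, 6.09 and 6.20 in the 4 control kidneys. The 4 monuron values lay below all controls, and control replicate 2 was the lowest control, for a difference of -1.72 (SE 0.27, adjusted p = 0.0061). Birc5 (survivin), which holds Aurkb at the centromere, was not tested. It stood at 3.16, 3.07, 3.14 and 3.80 in monuron kidneys, against 5.54, 3.59, 5.51 and 4.99 in controls, and monuron replicate 4 overlapped control replicate 2. The unfiltered difference was -1.62 (SE 0.42, adjusted p = 0.066). Cdca8 (borealin) was below the array median on all 8 arrays.

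All 4 tested genes of the spindle checkpoint fell. Ttk, the kinase that starts checkpoint signalling at kinetochores, was at 2.49, 2.37, 2.44 and 3.50 in monuron kidneys, against 6.53, 5.73, 5.45 and 4.49 in controls. The monuron values were below the array median on every array, and the difference was -2.85 (SE 0.42, adjusted p = 0.0049), or -1.64 with them set to the median. A second probe set of Ttk, dim in both groups, gave 0.02. Bub1 differed by -2.12 and Mad2l1, the inhibitor of Cdc20, by -1.22. Bub3, which also serves outside mitosis, differed by only -0.39 (SE 0.06, adjusted p = 0.0067), with no overlap. Its second probe set, far below the array median, gave 0.21.

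All 4 genes grouped under anaphase and mitotic exit fell. Pttg1 (securin), the inhibitor of separase, had the smallest adjusted p of all members, with 4.73, 4.05, 4.07 and 4.66 in the 4 monuron kidneys, against 7.47, 6.95, 7.76 and 7.27 in the 4 control kidneys. The groups were far apart, by -2.98 (SE 0.22, adjusted p = 2.52e-04), or 7.92-fold. Cdc20, the activator of the anaphase-promoting complex, stood at 2.52, 2.36, 2.92 and 2.90 in monuron kidneys, against 6.77, 5.30, 6.04 and 5.71 in controls. The monuron values lay below the array median on all 4 arrays, and the difference was -3.28 (SE 0.30, adjusted p = 8.85e-04), or -2.04 with them set to the median. A second probe set of Cdc20, also dim, gave -1.18, and the others, dim in both groups, gave 0.02, 0.002 and 0.03. Cdca3, counted in this role although it is a mitotic entry factor, differed by -3.29 and Ube2c, the ubiquitin-conjugating enzyme of the complex, by -3.18.

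Of 7 tested kinesins 5 fell. Kif22, which moves chromosome arms along the spindle, had 4.07, 4.17, 3.86 and 4.70 in the 4 monuron kidneys, against 7.90, 6.99, 7.95 and 7.15 in the 4 control kidneys. No values overlapped and the difference was -3.30 (SE 0.26, adjusted p = 3.43e-04), or 9.83-fold. The monuron values lay near the array medians of those kidneys, 3.89 to 3.94, so its exact size is not measured. Kif20a and Kif23, motors of the central spindle, differed by -2.93 and -1.68, Kif18b by -2.83 and Kif20b by -1.84. Kif11, the motor that pushes the poles apart, stood at -0.30 (adjusted p = 0.116) and Kif15 at -1.23 (adjusted p = 0.0946). Neither was called, and the groups overlapped in both. A second probe set of Kif11 gave 0.05, and that of Kif23, dim in both groups, gave -0.01.

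Knstrn, an adaptor of kinetochore microtubules, had levels of 3.58, 2.85, 2.88 and 4.05 in monuron kidneys, against 6.85, 6.16, 7.25 and 6.62 in controls. Only 1 monuron value lay above its array median, and the difference was -3.38 (SE 0.31, adjusted p = 9.22e-04), or -2.77 with the values under the median set to it. Prc1, the bundler of the central spindle, differed by -3.36, Nusap1 by -2.41 and Dlgap5, dim on all monuron arrays, by -2.32, so all 4 tested genes of spindle microtubule binding fell. Both tested genes of cytokinesis fell as well. Racgap1, which with Kif23 forms centralspindlin, had 3.97, 3.71, 3.76 and 4.61 in monuron kidneys, against 6.76, 6.25, 7.17 and 6.36 in controls. The groups were apart by -2.62 (SE 0.26, adjusted p = 9.76e-04), and Ect2, the exchange factor that activates RhoA at the midzone, by -2.09.

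All 6 tested kinetochore genes fell. Spc25, a subunit of the Ndc80 complex, had 4.80, 4.73, 4.60 and 5.44 in the 4 monuron kidneys, against 7.51, 6.94, 7.57 and 6.98 in the 4 control kidneys. Every control was above every monuron kidney, with a difference of -2.36 (SE 0.22, adjusted p = 9.22e-04). Spc24 and Nuf2 of the same complex differed by -2.60 and -2.50, Cenpf by -2.23, and Cenpk and Cenpn of the inner kinetochore by -1.40 and -0.62. The motor Cenpe and the inner kinetochore gene Cenpt were below the array median on all 8 kidney arrays.

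Mki67, the proliferation antigen that coats mitotic chromosomes, had 7.03, 5.30, 5.85 and 7.13 in the 4 monuron kidneys, against 8.55, 8.08, 8.55 and 8.42 in the 4 control kidneys. The groups did not overlap, monuron replicates 1 and 4 were the higher in their group, and the difference was -2.07 (SE 0.37, adjusted p = 0.0111), or 4.2-fold. Top2a, the topoisomerase that untangles chromatids, stood at 5.36, 3.63, 4.30 and 5.84 in monuron kidneys, against 7.15, 6.93, 6.25 and 6.89 in controls. Its monuron values spread widely but stayed below the controls, by -2.02 (SE 0.44, adjusted p = 0.0214). The condensin subunit Ncapd2 differed by -1.11. Condensin cores Smc2 (-0.24, adjusted p = 0.48) and Smc4 (0.04, adjusted p = 0.929) were not called, and both also serve in interphase.

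**Figure D1:**
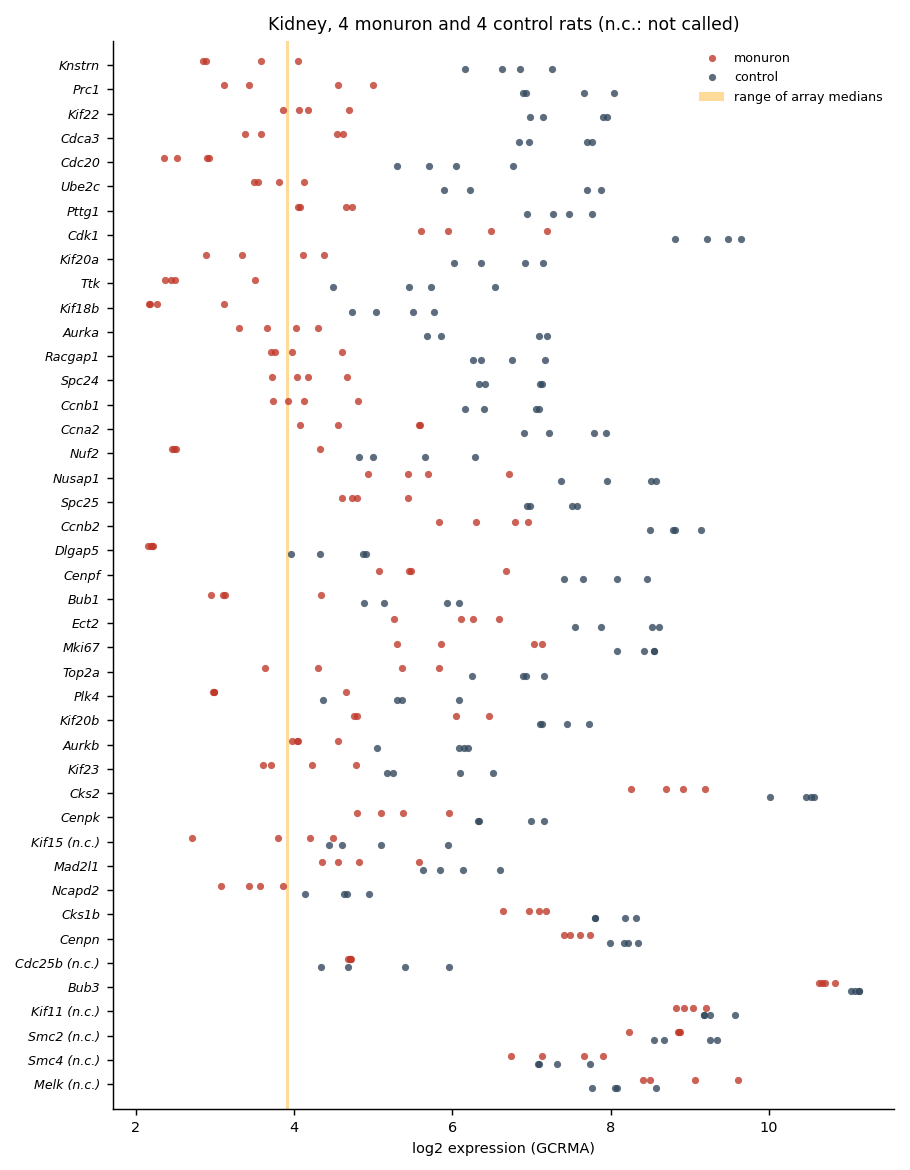
Log2 GCRMA level (x axis) of the 43 tested genes in kidney, 1 row per gene in order of the monuron minus control difference, with the 4 monuron rats in red and the 4 control rats in blue; the orange band spans the medians of the 8 arrays. Red and blue points stand apart in most rows, monuron values of many genes lie near or under the band, and the 6 genes marked n.c. were not called.

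Leaving out any 1 of the 8 kidney arrays kept 30 of the 37 calls, and the count of calls ranged from 31 to 38. Cenpk, Kif20b, Kif23, Mad2l1, Ncapd2, Plk4 and Top2a each lost their call without at least 1 array. Of 6 leukocyte markers tested, 0 fell and 1 rose, Ptprc, by 0.46 (SE 0.12, adjusted p = 0.0409), and the mean log2 level of the 9 markers on the array ran from 6.90 to 7.19 in monuron kidneys and from 6.92 to 7.04 in controls. The mean of the 15 kidney epithelium markers ran from 12.56 to 12.71 in monuron kidneys and from 12.48 to 12.72 in controls, with Cubn (1.005) and Lrp2 (0.63), endocytic receptors of the proximal tubule, and Cdh2 (0.64) higher and Krt8 (-0.61) lower. Red cell precursor markers ran from 6.95 to 7.18 in monuron kidneys and from 6.99 to 7.28 in controls, with 0 of 3 called. Hepatocyte markers ran from 6.15 to 7.68 in monuron kidneys and from 5.92 to 7.16 in controls, with 1 of 7 called, Cyp2e1 (-0.88), and albumin (Alb) averaged 10.11 in monuron and 7.68 in control kidneys, a difference that was not called (adjusted p = 0.0608). The part of any such shift in the mitotic result was not tested.

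Lists of other cell cycle genes were also tested in kidney. Of the further mitotic genes, 11 of 23 tested fell and 1 rose. The spindle gene Hmmr differed by -3.02, Shcbp1 by -2.85 and Tacc3, a spindle microtubule factor, by -1.53. Of 38 tested replication genes, 13 fell and 1 rose, with the helicase subunits Mcm7 (-0.77) and Mcm2 (-1.07) and the single-strand binder Rpa2 (-0.85) among those that fell. Of 15 anaphase-promoting complex genes, 1 fell, the enzyme Ube2s (-0.53), and of 11 cohesin genes 2 fell, Smc3 (-0.26) and Rad21 (-0.24). Among 8 genes of G1, Myc, a growth-promoting transcription factor, fell by 2.27 on the log2 scale and Cdk4 by 0.36. Of 14 brakes on the cycle, 4 fell and 0 rose. The Cdk inhibitors Cdkn2c (-0.97), Cdkn1a (-1.47) and Cdkn2d (-0.93) were among those that fell. Of 16 regulators of mitotic genes 1 fell, Lin9 (-0.55), a subunit of the MuvB core.

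Liver held no call. Of the 54 members, 23 were tested, 0 fell and 0 rose, and 1 had an unadjusted p under 0.05, where 2.02% of all 9361 genes were lower and 1.1% higher. The median log2 difference of the 23 was -0.28, against -0.07 over all genes. Mki67 stood at 4.93, 4.91, 4.83 and 4.95 in monuron livers, against 4.86, 4.68, 5.02 and 6.49 in control livers. The other controls lay close to the monuron values, and control replicate 4 was far above them, so that the difference was -0.36 (SE 0.35, adjusted p = 0.572). Ccnb1 had 3.96, 3.87, 3.96 and 3.92 in monuron livers, against 3.93, 3.91, 4.26 and 5.67 in control livers, with the same control apart, at -0.51 (SE 0.35, adjusted p = 0.414). Top2a had 4.09, 3.18, 4.16 and 3.59 in monuron livers, against 4.08, 4.12, 4.18 and 4.83 in control livers, at -0.55 (SE 0.26, adjusted p = 0.236), with the groups overlapping.

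Cdk1 in liver stood at 5.31, 3.83, 5.32 and 5.28 in monuron livers, against 4.96, 4.09, 5.93 and 6.54 in control livers, and monuron replicate 2 was the lowest. Its difference was -0.45 (SE 0.54, adjusted p = 0.65). Aurkb had 4.14, 3.99, 4.11 and 3.97 in monuron livers, against 3.84, 4.03, 4.04 and 4.41 in control livers, with a difference of -0.03 (SE 0.15, adjusted p = 0.935), and Cks2 9.35, 9.11, 9.50 and 9.28 in monuron livers, against 9.30, 9.27, 9.63 and 9.60 in control livers, at -0.14 (SE 0.12, adjusted p = 0.523). All these ranges overlapped. Spc24 of the Ndc80 complex had the lowest difference, -1.09 (SE 0.42, adjusted p = 0.159), with 3.85, 3.34, 4.26 and 3.66 in monuron livers, against 4.76, 3.80, 4.89 and 6.04 in control livers. Pttg1 had 4.21, 3.76, 4.21 and 3.64 in monuron livers, against 4.10, 4.10, 4.10 and 5.96 in control livers, at -0.61 (SE 0.41, adjusted p = 0.399). Bub3 was the one member with no overlap, at -0.15 (SE 0.08, adjusted p = 0.255). Cdc20, Birc5 and Plk1 lay below the array median on all 8 liver arrays and were not tested. Cdc20, by another probe set than in kidney since it was the brightest in liver, had 2.76, 2.72, 2.69 and 2.58 in monuron livers, against 2.73, 2.73, 2.73 and 2.78 in control livers. Birc5 had 3.19, 3.16, 3.14 and 3.08 in monuron livers, against 3.18, 3.09, 3.01 and 3.60 in control livers. Plk1 had 2.63, 2.56, 2.62 and 2.57 in monuron livers, against 2.57, 2.57, 2.58 and 2.58 in control livers. Both groups overlapped in all 3 of these dim genes.

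Leaving out any 1 liver array, control replicate 4 included, gave 0 calls. Of the lists around the cycle, replication genes were the only one with calls, 2 of 35 lower (Tk1, thymidine kinase, -0.63, and Mcm7, -0.50) and 1 higher (Prim2, a primase subunit, 0.82). Between 20 and 25 of the 54 members were above the array median on the monuron livers and between 23 and 33 on the controls. In kidney it was 23 to 38 on monuron and 43 to 47 on control arrays, so more of these genes were above the median in control kidneys than in control livers.

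The difference between the organs was tested in the joint fit of their 16 arrays, as the liver difference minus the kidney difference, with the arrays taken as independent. Of 43 members tested, it was called above 0 for 20 and called below 0 for 0, where 1.09% of all 10114 genes were called above and 1.59% below. In liver, however, 12 of the 20 lay above the array median on at most 1 array of each group, so that no liver difference could be measured and the value restates the kidney difference. With only genes above the median on at least 2 arrays of each liver group, 8 of 23 members were called above 0, where 0.775% of all genes were. For these 8, Kif22, Pttg1, Aurka, Cenpf, Ccnb1, Aurkb, Cks2 and Cks1b, the difference is given from the joint fit. Several of them were still dim in control livers, whose array medians ran from 3.67 to 3.70. Mean levels there were 3.94 for Kif22, 4.08 for Aurkb, 4.44 for Ccnb1 and 4.45 for Aurka. A fall as large as in kidney could hardly show from such levels, so their values in part restate the kidney difference. It was 2.02 (SE 0.48, adjusted p = 0.0354) for Ccnb1, 1.69 (SE 0.32, adjusted p = 0.0096) for Aurkb and 1.49 (SE 0.24, adjusted p = 0.0037) for Cks2. Kif22 had the largest value of the 8, 3.12 (SE 0.31, adjusted p = 7.66e-05), and its liver levels were 3.85, 3.67, 3.85 and 3.68 in monuron livers, against 3.84, 3.84, 4.09 and 4.00 in control livers. Pttg1 (2.38), Aurka (2.33), Cenpf (2.14) and Cks1b (1.07) were the others. The 12 dim in liver, Cdc20, Ttk, Dlgap5, Racgap1 and Spc25 among them, are not read as differences between the organs. For Mki67 it was 1.71 (SE 0.55, adjusted p = 0.117), for Top2a 1.48 (SE 0.55, adjusted p = 0.177) and for Cdk1 2.54 (SE 0.67, adjusted p = 0.0562), none of them called. The count ranged from 16 to 27 with 1 array left out, and Bub1, Ccnb1 and Ube2c lost their calls without some arrays.

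**Figure D2:**
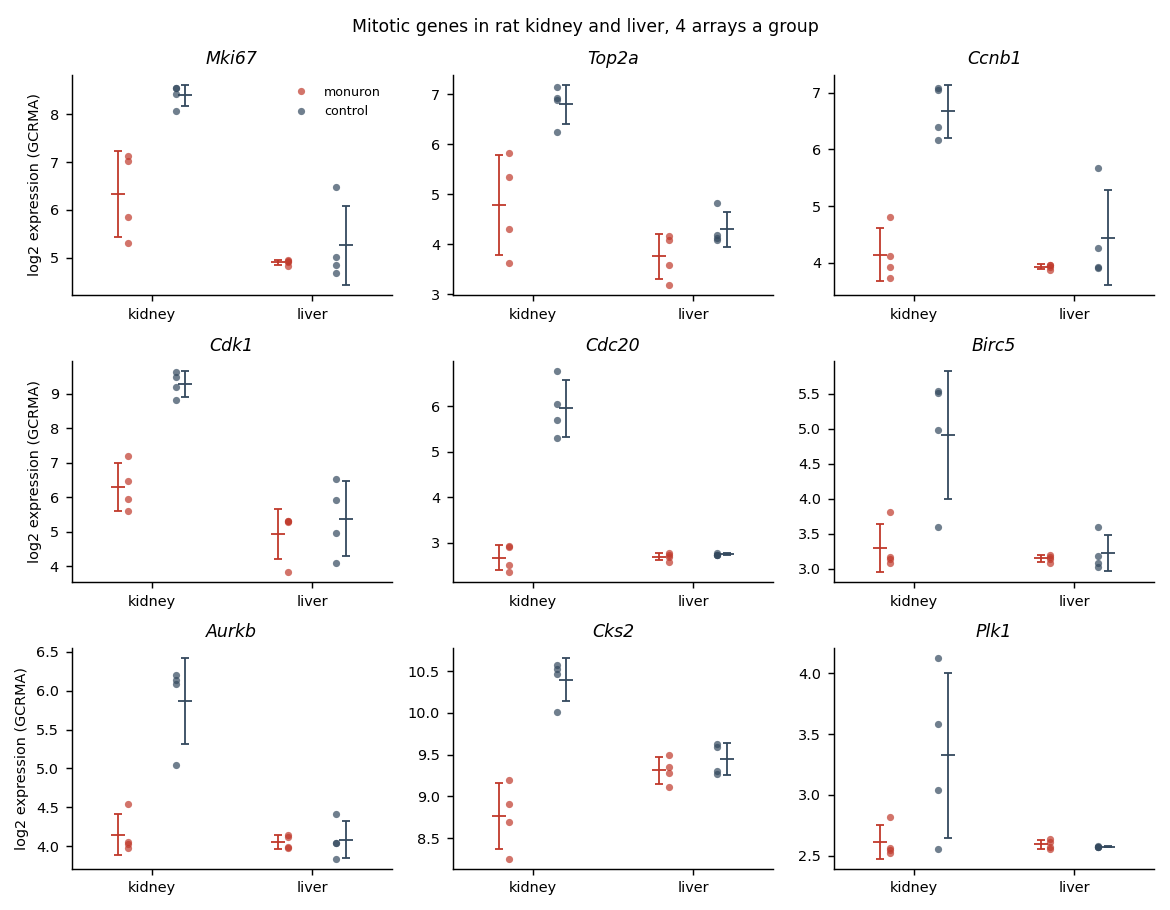
Log2 GCRMA level (y axis) of 9 mitotic genes in kidney and liver, with monuron rats in red to the left of control rats in blue, 1 point per array, and the mean and SD of 4 arrays as bars. Kidney groups stand apart in 7 of the panels and overlap for Birc5 and Plk1, while the liver groups overlap in all 9 and 1 control liver lies high for Mki67 and Ccnb1. Cdc20 is plotted by different probe sets in kidney and liver, so its levels are not compared between the organs.

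In DMSO cells the mitotic genes fell early in the course. Between 6 and 24 h, 47 of the 53 tested members fell and 0 rose, where 28.3% of all 9042 genes fell, and the median log2 difference was -0.98, against -0.02 over all genes. For all 53, every array at 24 h was below every array at 6 h, where 35.9% of all genes had such a gap. Replication genes fell with them, 43 of 49 tested, as did 40 of the 44 further mitotic genes and 14 of the 21 regulators. Mki67 in DMSO cells was 12.10, 12.28 and 12.23 at 6 h, 11.57, 11.45 and 11.46 at 24 h and 11.29, 11.54 and 11.20 at 72 h. The 24 h values were below all those at 6 h, by -0.71 (SE 0.12, adjusted p = 1.89e-04). Ccnb1 was 12.40, 12.33 and 12.44 at 6 h, 11.20, 11.14 and 10.91 at 24 h and 10.08, 10.36 and 10.45 at 72 h, a course with a gap at each step, by -1.31 (SE 0.14, adjusted p = 1.49e-06) at 24 h and by -0.79 (SE 0.14, adjusted p = 6.45e-04) thereafter. Cdc20 was 11.09, 11.01 and 10.95 at 6 h, 10.12, 10.06 and 10.03 at 24 h and 9.24, 10.00 and 9.47 at 72 h, with -0.94 (SE 0.19, adjusted p = 5.23e-04) in the early interval.

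Birc5 in DMSO cells was 10.65, 10.34 and 10.46 at 6 h, 8.91, 8.90 and 8.92 at 24 h and 8.76, 9.01 and 8.67 at 72 h. It dropped by 1.57 on the log2 scale in the early interval (SE 0.17) and then showed -0.10 (adjusted p = 0.715). Aurkb was 11.23, 11.09 and 11.08 at 6 h, 9.79, 9.83 and 9.72 at 24 h and 9.45, 9.86 and 9.93 at 72 h, with -1.35 (SE 0.14, adjusted p = 1.32e-06) early. Cks2 was 13.60, 13.41 and 13.54 at 6 h, 12.53, 12.41 and 12.33 at 24 h and 12.25, 12.64 and 12.44 at 72 h, at -1.10 (SE 0.08, adjusted p = 5.17e-08). For these genes the values at 72 h overlapped those at 24 h. Plk1 was 10.07, 9.96 and 10.03 at 6 h, 8.69, 8.63 and 8.54 at 24 h and 7.49, 8.18 and 8.03 at 72 h, with -1.41 (SE 0.25, adjusted p = 2.08e-04) early. Top2a was 11.02, 11.09 and 11.22 at 6 h, 10.64, 10.83 and 10.34 at 24 h and 10.19, 11.12 and 10.71 at 72 h, and its early difference was not called (-0.51, adjusted p = 0.103) although the groups did not overlap. Cdk1 was 13.13, 12.95 and 12.99 at 6 h, 12.29, 12.29 and 12.32 at 24 h and 12.44, 12.82 and 12.66 at 72 h. It fell in the early interval, at -0.72 (SE 0.11, adjusted p = 6.71e-05), and was higher at 72 h than at 24 h, at 0.34 (SE 0.11, adjusted p = 0.0351).

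By role, the early fall took in all 10 tested cyclins and kinases, all 3 passenger genes, all 6 checkpoint genes, all 4 genes of mitotic exit and both of cytokinesis, 8 of 9 kinesins, 7 of 8 kinetochore genes, 5 of 7 chromosome genes and 2 of 4 microtubule binders. The smallest adjusted p was that of Trip13, an ATPase that remodels Mad2, at -1.58 (SE 0.09, adjusted p = 5.02e-09). Its levels in DMSO cells were 10.53, 10.48 and 10.54 at 6 h, 8.88, 8.98 and 8.95 at 24 h and 8.19, 8.45 and 8.32 at 72 h, and they fell again in the later interval, at -0.62 (SE 0.09, adjusted p = 1.48e-04). Cenpn, of the inner kinetochore, was 9.68, 9.55 and 9.57 at 6 h, 8.09, 8.05 and 7.82 at 24 h and 7.53, 7.70 and 7.61 at 72 h, with -1.62 early. Kif23 was 12.48, 12.33 and 12.30 at 6 h, 11.27, 11.39 and 11.12 at 24 h and 11.09, 11.33 and 11.28 at 72 h, with -1.11. Both were lower at 24 h on every array. Racgap1, the partner of Kif23, was 11.86, 11.92 and 12.00 at 6 h, 10.79, 10.68 and 10.83 at 24 h and 10.75, 10.96 and 10.73 at 72 h, with -1.16. Pttg1 was 12.35, 12.24 and 12.27 at 6 h, 11.14, 11.17 and 11.22 at 24 h and 10.26, 11.11 and 10.87 at 72 h, with -1.11. Prc1 was 11.40, 11.40 and 11.41 at 6 h, 10.42, 10.36 and 10.27 at 24 h and 9.81, 10.28 and 9.92 at 72 h, with -1.05. The early differences of these genes of the central spindle and of mitotic exit lay close together. Cdca2, a chromatin-bound phosphatase subunit, was 9.65, 9.84 and 9.96 at 6 h, 8.83, 8.77 and 8.84 at 24 h and 8.38, 8.71 and 8.54 at 72 h, with -1.004. Not called were Kif20b, Nusap1, Knstrn, Cenpf, Ncaph and Top2a, whose differences ran from -0.75 to -0.40. The calls of Cenpe and Kif15 were lost without some of the arrays.

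Between 24 and 72 h in DMSO cells, 7 members fell (Ccnb1, Plk4, Plk1, Trip13, Cenpe, Cenpt and Ncapd2) and Cdk1 rose, at a background of 16.4% lower and 11.6% higher, so their share was below that of all genes. The median of the members was -0.25. The count depended on single arrays. It was 3 without DMSO replicate 1 or 2 at 24 h, 5 without DMSO replicate 1 at 72 h, 13 without DMSO replicate 3 at 72 h and 22 without monuron replicate 3 at 72 h, which enters through the shared estimate of spread. Shares over all genes are not given for these single omissions, so the counts are not read as particular to the members. Without either 72 h array of replicate 3, 26 were lower and 2 higher, at a background of 25.8% and 16.6%. Cenpe, the motor that aligns chromosomes, was 7.94, 8.42 and 8.41 at 6 h, 7.40, 7.64 and 7.20 at 24 h and 5.82, 6.70 and 6.30 at 72 h, with -1.14 (SE 0.30, adjusted p = 0.0092) in the later interval. The calls kept through every omission were those of Ccnb1, Trip13 and Cenpe. Over the whole course the mean level was ordered 6 h above 24 h above 72 h for 46 of the 54 members in DMSO cells and for 50 in monuron cells. These counts of means have no share over all genes beside them and include Cdc25b, which lay below the array median on every cell array. In DMSO cells only 7 members were called lower in the later interval.

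At 6 h monuron cells held no called member. Of 53 tested, 0 were called and 2 had an unadjusted p under 0.05, where 6.31% of all genes were called, and the median log2 difference was -0.05. Mad2l1 came nearest, with 11.28, 11.07 and 10.85 in monuron cells, against 11.62, 11.37 and 11.52 in DMSO cells. All 3 monuron values were below the DMSO values, at -0.44 (SE 0.14, adjusted p = 0.0815). Ccnb1 had 12.21, 12.30 and 12.19 in monuron cells, against 12.40, 12.33 and 12.44 in DMSO cells, also with no overlap, at -0.16 (SE 0.14, adjusted p = 0.535). Mki67 had 12.52, 12.44 and 12.26 in monuron cells, against 12.10, 12.28 and 12.23 in DMSO cells, and its groups overlapped. With only the 6 h arrays in the fit, and so without the spread of the 72 h arrays, 8 members were lower (Ccnb2, Cdc20, Nuf2, Cenpk, Pttg1, Aurka, Spc25 and Mad2l1), where 8.35% of all genes were. Without the 72 h arrays 10 were lower and 2 higher, at a background of 12.2% and 10.7%.

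At 24 h 5 members fell in monuron cells, Trip13, Cks2, Ccnb1, Cdc20 and Cdca2, and 0 rose. That is 5 of 53 tested, where 7.14% of all genes were lower and 6.43% higher, so the share called was near the background. Trip13 had 8.13, 8.27 and 8.15 in monuron cells, against 8.88, 8.98 and 8.95 in DMSO cells. The groups were well apart, at -0.76 (SE 0.09, adjusted p = 1.82e-04). Cks2 had 11.97, 12.00 and 12.10 in monuron cells, against 12.53, 12.41 and 12.33 in DMSO cells, again apart, at -0.40 (SE 0.08, adjusted p = 0.0064). Ccnb1 had 10.63, 10.48 and 10.62 in monuron cells, against 11.20, 11.14 and 10.91 in DMSO cells, at -0.51 (SE 0.14, adjusted p = 0.0263). Cdc20 had 9.32, 9.50 and 9.45 in monuron cells, against 10.12, 10.06 and 10.03 in DMSO cells, at -0.65 (SE 0.19, adjusted p = 0.0327). Cdca2 stood at 8.19, 8.37 and 8.58 in monuron cells, against 8.83, 8.77 and 8.84 in DMSO cells, at -0.43 (SE 0.13, adjusted p = 0.0426).

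Many other members leaned the same way at 24 h without a call. The difference was below 0 for 49 of the 53, with a median of -0.33 against 0.00 over all genes, and in 35 every monuron array was below every DMSO array, where 25% of all genes had such a gap. Mki67 had 11.31, 11.20 and 11.24 in monuron cells, against 11.57, 11.45 and 11.46 in DMSO cells, with no overlap but a difference of -0.25 (SE 0.12, adjusted p = 0.201). Plk1 had 8.13, 8.01 and 8.07 in monuron cells, against 8.69, 8.63 and 8.54 in DMSO cells, at -0.55 (SE 0.25, adjusted p = 0.158). Birc5 had 8.62, 8.52 and 8.27 in monuron cells, against 8.91, 8.90 and 8.92 in DMSO cells, at -0.44 (SE 0.17, adjusted p = 0.0975). In these 3 genes no monuron value reached a DMSO value at 24 h, and the spread that enters the test comes from all 18 arrays. Aurkb had 9.62, 9.66 and 9.68 in monuron cells, against 9.79, 9.83 and 9.72 in DMSO cells, Top2a 10.48, 10.22 and 10.37 in monuron cells, against 10.64, 10.83 and 10.34 in DMSO cells and Cdk1 12.34, 12.20 and 12.29 in monuron cells, against 12.29, 12.29 and 12.32 in DMSO cells, and Cdk1 and Top2a overlapped. Cenpe had 6.52, 6.39 and 6.74 in monuron cells, against 7.40, 7.64 and 7.20 in DMSO cells, the lowest difference of all members at 24 h, -0.87 (SE 0.30, adjusted p = 0.0606), with no overlap. Kif22 differed by -0.38, Prc1 by -0.26 and Racgap1 by -0.24, none of them called. With only the 24 h arrays in the fit, 30 members were lower and 1, Spc24, was higher, where 17.9% of all genes were lower and 18.3% higher. Without the 72 h arrays it was 32 lower and 1 higher, at 16.8% and 16.4%. Without monuron replicate 3 at 72 h alone the count was 21, and it ranged from 2 to 21 over all omissions of 1 array, with no share over all genes beside these counts. The calls of Ccnb1, Cdc20 and Cdca2 were lost without some of the 24 h arrays, while Trip13 and Cks2 kept theirs.

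Around the members at 24 h, 19 of 49 replication genes fell and 1 rose. Ccne1, the cyclin of S-phase entry, differed by -1.06 (SE 0.12, adjusted p = 1.02e-04), Fen1 by -0.81 and Pcna, the sliding clamp, by -0.36. Of the regulators 6 of 21 fell, E2f6 (-0.68), E2f7 (-1.004) and E2f2 (-0.92) first among them. Of the further mitotic genes 5 of 44 fell. Of 15 anaphase-promoting complex genes 4 fell. Of 9 G1 genes 3 fell and 1, the cyclin Ccnd2, rose, at 0.95. Of 15 brakes 2 fell and 1, Ccng2, rose, at 0.33.

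At 72 h nearly all members differed between monuron and DMSO cells. Of 53 tested, 47 fell and 2 rose, where 30.9% of all genes fell and 30.7% rose, and the median log2 difference was -0.98 against 0.01 over all genes. Ttk, Kif18a, Spc24 and Smc4 were not called. In 41 every monuron array was below every DMSO array, where 29.4% of all genes had such a gap. The mean was lowest in monuron cells at 72 h, out of the 6 cell groups, for 48 of the 54 members, a count with no share over all genes beside it. Without either 72 h array of replicate 3, 41 fell and 3 rose, at a background of 29.5% and 31.7%.

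Mki67 at 72 h had 10.18, 10.10 and 9.61 in monuron cells, against 11.29, 11.54 and 11.20 in DMSO cells. The groups were clearly apart, at -1.38 (SE 0.12, adjusted p = 4.03e-07), or 2.6-fold. Birc5 had 7.57, 7.52 and 6.75 in monuron cells, against 8.76, 9.01 and 8.67 in DMSO cells, apart by -1.54 (SE 0.17, adjusted p = 2.46e-06), and Cdca8 of the same complex differed by -1.07. Aurkb had 8.99, 8.92 and 8.39 in monuron cells, against 9.45, 9.86 and 9.93 in DMSO cells. Monuron replicate 3 was the lowest, the groups did not overlap, and the difference was -0.98 (SE 0.14, adjusted p = 2.57e-05). Cdc20 had 8.47, 8.40 and 7.64 in monuron cells, against 9.24, 10.00 and 9.47 in DMSO cells, at -1.41 (SE 0.19, adjusted p = 1.18e-05). Cdca3 had the smallest adjusted p of its role, with 8.01, 7.55 and 6.52 in monuron cells, against 9.52, 9.74 and 9.43 in DMSO cells and -2.21 (SE 0.24, adjusted p = 1.87e-06). Ube2c differed by -1.27 and Pttg1 by -0.59, a call that was lost without DMSO replicate 2 or monuron replicate 3.

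Among cyclins and kinases 9 of 10 tested members fell at 72 h. Plk1 had 6.61, 6.81 and 5.42 in monuron cells, against 7.49, 8.18 and 8.03 in DMSO cells. Monuron replicate 3 was far below its group, and the difference was -1.62 (SE 0.25, adjusted p = 4.79e-05). Ccnb1 had 9.52, 9.35 and 8.83 in monuron cells, against 10.08, 10.36 and 10.45 in DMSO cells, at -1.06 (SE 0.14, adjusted p = 1.01e-05), while its second probe set gave -2.33. Cdk1 had 12.38, 12.40 and 11.91 in monuron cells, against 12.44, 12.82 and 12.66 in DMSO cells. Its groups were close but apart, at -0.41 (SE 0.11, adjusted p = 0.0054). Cks2 had 12.15, 12.23 and 12.19 in monuron cells, against 12.25, 12.64 and 12.44 in DMSO cells, a narrow gap of -0.26 (SE 0.08, adjusted p = 0.0132) that was not called without DMSO replicate 2. Aurka had 7.49, 7.67 and 6.85 in monuron cells, against 8.33, 8.81 and 8.81 in DMSO cells, apart by -1.31 (SE 0.17, adjusted p = 9.42e-06). Ccnb2 differed by -1.59, Ccna2 by -1.28, Melk by -0.95 and Plk4 by -0.37.

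The members that rose at 72 h were Cks1b and Cenpk. Cenpk, part of the constitutive centromere network, had 11.45, 11.50 and 11.61 in monuron cells, against 9.85, 10.30 and 11.11 in DMSO cells. Every monuron array was above every DMSO array, at 1.10 (SE 0.19, adjusted p = 1.51e-04), or 2.14-fold, and with 1 array left out the difference ran from 0.81 to 1.44 and stayed called. Cks1b, which also serves the SCF ligase in G1, had 11.22, 11.28 and 11.22 in monuron cells, against 10.66, 11.10 and 11.01 in DMSO cells, at 0.31 (SE 0.10, adjusted p = 0.0128). Its second probe set went the other way, at -0.23, the mean of both was not called, and the call was lost without DMSO replicate 1. In kidney both genes fell, as given above.

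Most genes of the spindle itself fell at 72 h. Of 9 kinesins 8 fell, led by Kif20a with 9.12, 8.76 and 7.59 in monuron cells, against 10.51, 10.76 and 10.43 in DMSO cells. These values were far apart, at -2.07 (SE 0.24, adjusted p = 3.95e-06), or 4.21-fold. Kif2c, a microtubule depolymerase, differed by -1.99, Kif20b by -1.16, Kif23 by -0.88 and Kif11 by -0.60, while Kif18a, which damps chromosome movements, stood at 0.08 (adjusted p = 0.626). For Kif11 a second probe set gave -1.11. All 4 microtubule binders fell. Nusap1 had 9.39, 9.33 and 8.36 in monuron cells, against 10.05, 10.34 and 10.50 in DMSO cells, at -1.27 (SE 0.19, adjusted p = 3.96e-05), Dlgap5 differed by -1.33, Knstrn by -1.11 and Prc1 by -0.71. Both cytokinesis genes fell, Racgap1 with 10.23, 9.93 and 9.26 in monuron cells, against 10.75, 10.96 and 10.73 in DMSO cells and -1.005 (SE 0.16, adjusted p = 6.22e-05), and Ect2 at -0.76.

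Of 8 kinetochore genes 6 fell at 72 h. Nuf2 had 9.62, 9.40 and 8.54 in monuron cells, against 10.58, 10.90 and 10.71 in DMSO cells, with no overlap and -1.54 (SE 0.18, adjusted p = 4.13e-06). The motor Cenpe differed by -2.22 and Cenpf by -1.72, Spc25 by -1.46, Cenpn by -0.80 and Cenpt by -0.56, while Spc24 stood at 0.20 (adjusted p = 0.434). The checkpoint genes differed least as a role, with a median of -0.40. Bub1b (BubR1) had 8.34, 8.41 and 7.63 in monuron cells, against 9.05, 9.78 and 9.45 in DMSO cells, at -1.30 (SE 0.18, adjusted p = 1.79e-05). Trip13, Mad2l1, Bub1 and Bub3 ran from -0.47 to -0.35, and the probe sets of Mad2l1 differed among themselves, at -1.40, 0.05 and -0.41. Ttk at -0.36 missed the threshold (adjusted p = 0.0512), while its second, dimmer probe set gave -0.75.

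Among chromosome genes, Cdca2 had 7.26, 6.95 and 6.77 in monuron cells, against 8.38, 8.71 and 8.54 in DMSO cells. It had the smallest adjusted p of all members, at -1.55 (SE 0.13, adjusted p = 2.54e-07). Ncaph, a condensin subunit, had 8.16, 8.06 and 6.01 in monuron cells, against 9.68, 10.06 and 9.55 in DMSO cells. Monuron replicate 3 was far below the others. The difference was -2.36 (SE 0.36, adjusted p = 4.48e-05), the lowest of all members, but it was -1.66 without that array, and Cenpe (-1.82) and Cdca3 (-1.79) were then lower. Top2a had 10.16, 9.95 and 8.95 in monuron cells, against 10.19, 11.12 and 10.71 in DMSO cells, apart by -0.99 (SE 0.25, adjusted p = 0.003). Ncapd2 differed by -0.91 and Smc2 by -0.50, and Smc4 was not called (-0.20, adjusted p = 0.266). Without monuron replicate 3 at 72 h, 43 members were lower and 2 higher, with no share over all genes for this omission. Kif2c then moved to -1.33, and no call other than those of Kif2c and Ncaph at 72 h moved by over 1.5-fold when 1 array was left out. Over all members, 42 of the 49 calls were kept when any 1 of the 18 arrays was left out. Bub1, Cenpt, Cks1b, Cks2, Mad2l1, Plk4 and Pttg1 lost theirs in some omission.

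**Figure D3:**
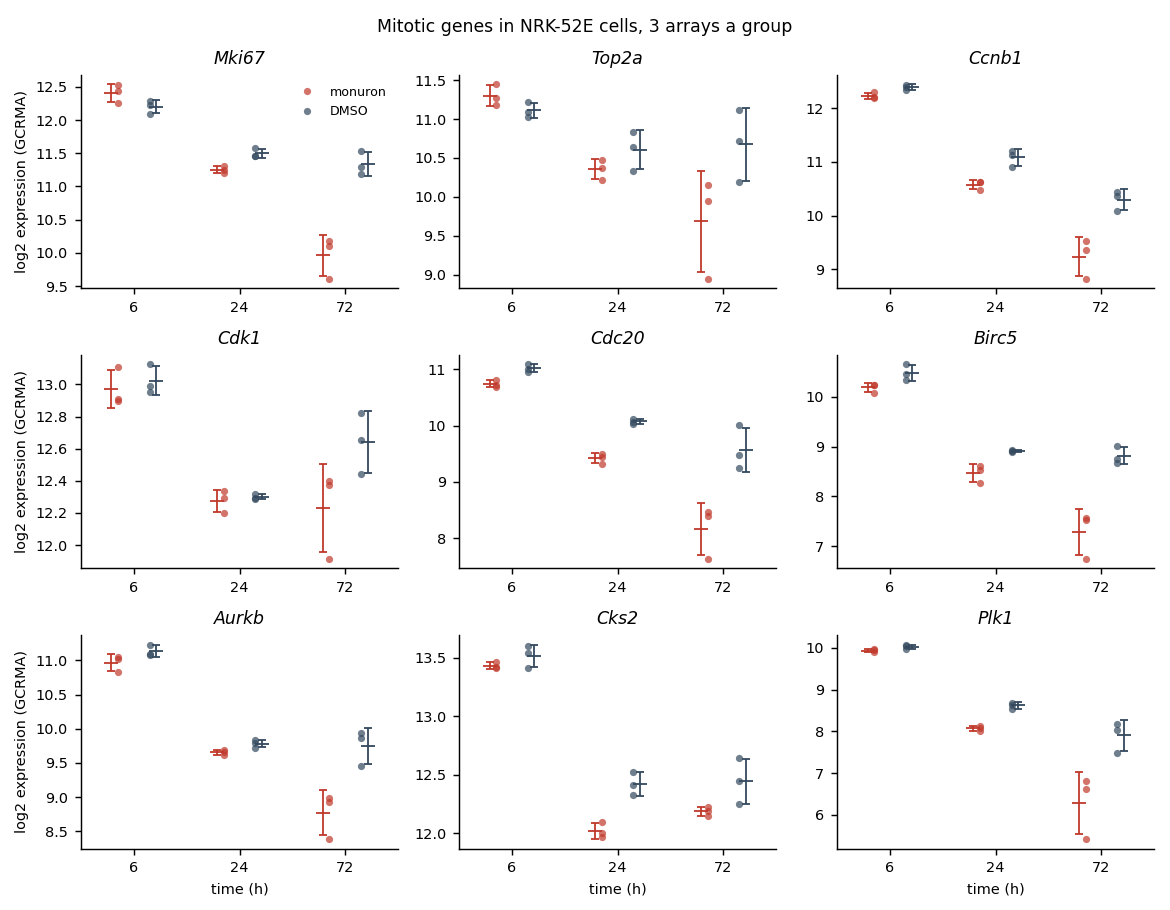
Log2 GCRMA level (y axis) of 9 mitotic genes in NRK-52E cells at 6, 24 and 72 h (x axis), with monuron arrays in red to the left of DMSO arrays in blue, 1 point per array and the mean and SD of 3 arrays as bars. Levels at 24 h are below those at 6 h in both groups, and at 72 h every monuron array lies below every DMSO array in all 9 panels.

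The change of the monuron difference from 24 to 72 h was itself tested. It was called below 0 for 27 of 53 members and above 0 for 3 (Cks1b, Trip13 and Cenpk), where 19.6% of all genes were called below and 18.3% above. Mki67 changed by -1.13 (SE 0.18, adjusted p = 2.31e-04), Kif20a by -1.62 (SE 0.35, adjusted p = 0.0021) and Cdca3 by -1.52 (SE 0.34, adjusted p = 0.0028). Birc5 (-1.09), Plk1 (-1.07), Aurkb (-0.85), Cdc20 (-0.76) and Ccnb1 (-0.56) were called too, and Top2a (-0.74), Cdk1 (-0.39) and Cks2 (0.14) were not. Leaving out 1 array gave 20 to 39 calls, and 19 of the 30 were kept in every omission. Without monuron replicate 3 at 72 h, 25 were called, and the change of Ncaph was -1.04, against -1.74 with it. The change from 6 to 24 h was called for 0 members in limma, with 5 at an unadjusted p under 0.05 and a background of 1.22%. Without the 72 h arrays it was called for 19, at a background of 18.3%.

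**Figure D4:**
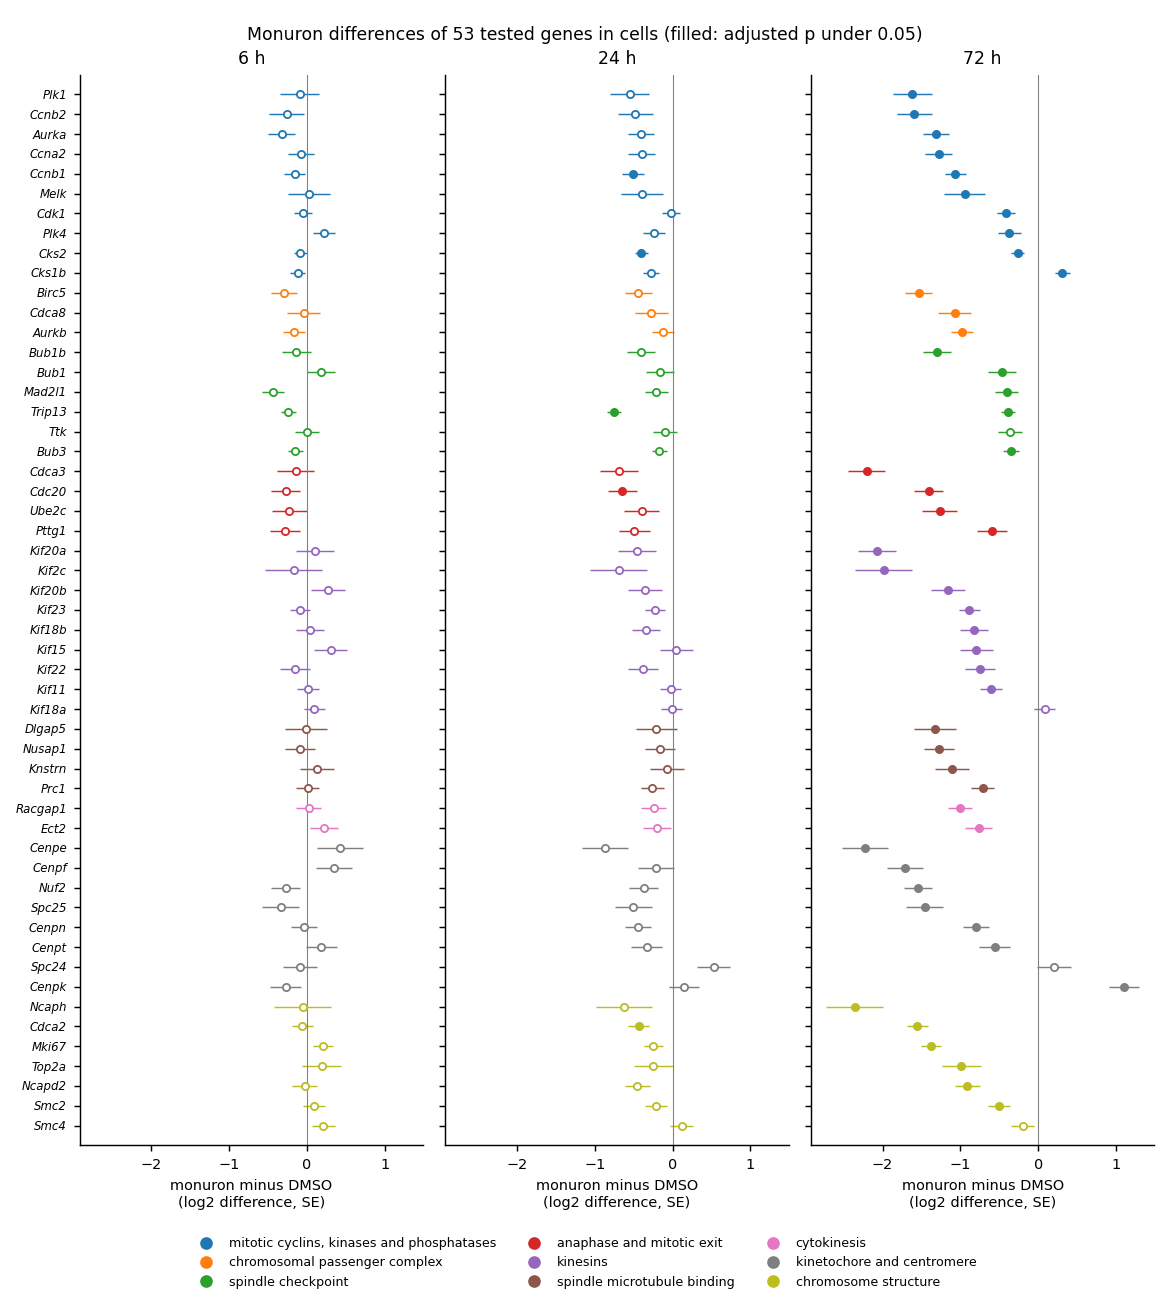
Monuron minus DMSO log2 difference with its SE (x axis) for the 53 tested genes, 1 row per gene, coloured by role, in panels for 6, 24 and 72 h, with filled points for an adjusted p under 0.05. Points scatter around 0 at 6 h, lean to the left at 24 h with 5 filled, and at 72 h lie mostly left of 0, with only Cks1b and Cenpk filled on the right.

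Other lists are read against the 30.9% of all genes that fell at 72 h and the 30.7% that rose. Of 44 further mitotic genes 26 fell and 6 rose. Among those that fell were Hjurp, the loader of centromeric histone, by -1.62, Cenpw by -2.12 and Kifc1, a minus-end motor, by -1.25. Of 49 replication genes 22 fell and 7 rose, among them Mcm7 (-1.59) and Ccne1 (-1.14) down and the origin binder Orc2 (1.46) up. Of 13 cohesin genes 7 fell and 1 rose, with Smc1a at -1.59, Esco2 at -1.71 and separase, Espl1, at -1.08. Of 21 regulators 11 fell and 7 rose, E2f7, an E2F repressor, at -2.18, Tfdp2 at -1.34 and Nfyb, an NF-Y subunit, at 1.41. Brakes went both ways, 7 of 15 lower and 5 higher, with a median log2 difference of 0.06. The inhibitor Cdkn1b (p27) at -0.63 and Ccng2 at -0.81 were among those lower. Of 15 anaphase-promoting complex genes 6 fell and 4 rose. All 8 genes of a stress panel (Trib3, Asns, Chac1, Ddit3, Atf4, Atf3, Sesn2 and Vldlr) rose, with a mean log2 level of 12.07 to 12.59 on the monuron arrays and of 8.23 to 11.56 on the DMSO arrays. On the DMSO arrays of 6 and 24 h that mean ran only from 9.13 to 9.47, so at least 1 DMSO array at 72 h stood high for this panel. The part of the panel in the mitotic result was not tested.

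Lists of lower members from different settings overlapped about as much as their sizes alone would give. Of 42 members tested in both, 37 were lower in monuron cells at 72 h and 37 in monuron kidneys, and 33 were lower in both, 89.2% of each list. The early fall in DMSO cells shared 32 of its 37 with kidney (86.5% of each list) and 41 of its 47 with monuron cells at 72 h (87.2% of each list). Most tested members were lower in each comparison, so these shares show no overlap beyond that. In all 3 comparisons 28 members were lower. Over the 42 members, the log2 difference at 72 h and that in kidney had Pearson's r = 0.389 and Spearman's rho = 0.392. Top2a and Nusap1 entered by different probe sets in cells and kidney. Over 53 members, the difference at 72 h and the early fall in DMSO cells had r = 0.021 and rho = 0.065. These are descriptions across genes, which share their arrays and are not independent replicates. Ttk and Spc24 fell in kidney (-2.85 and -2.60) but were not called in cells at 72 h, and Smc2, Kif11, Kif15 and Melk fell in cells but were not called in kidney. Smc4 was called in neither, and whether these genes differ between cells and kidney was not tested.

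**Figure D5:**
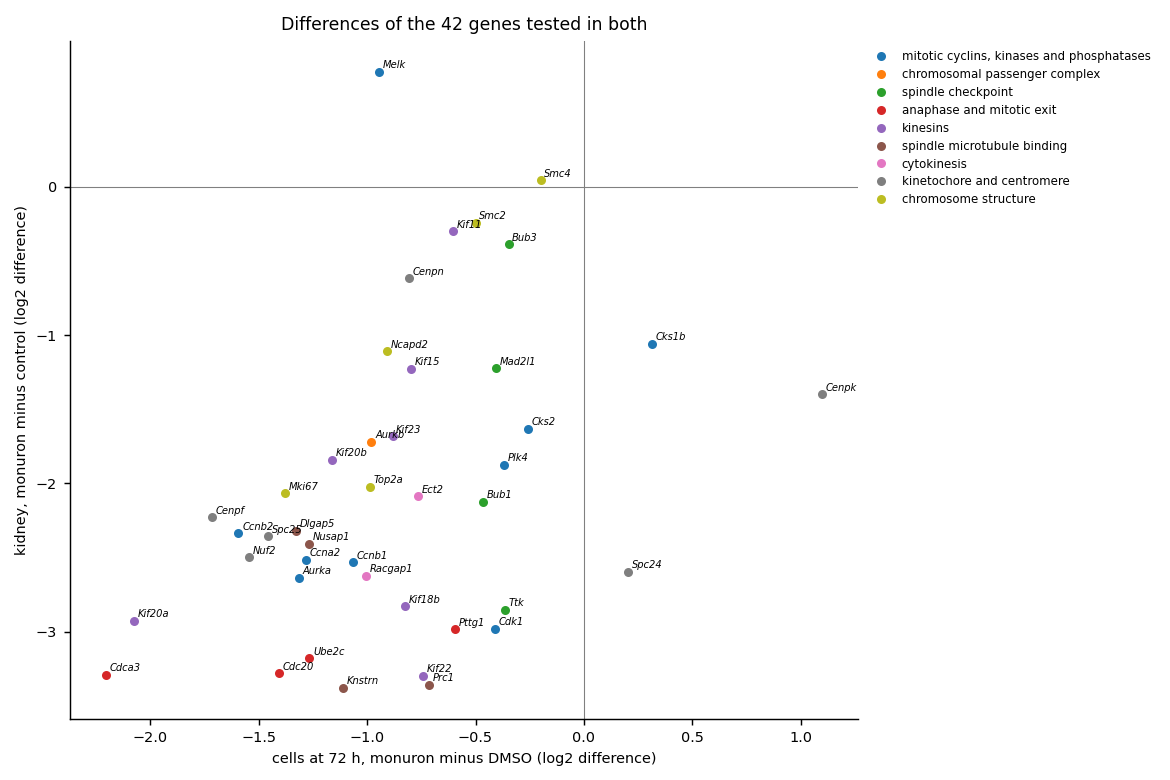
Monuron minus DMSO log2 difference in cells at 72 h (x axis) against monuron minus control log2 difference in kidney (y axis) for the 42 genes tested in both, 1 point per gene, coloured by role. Most points lie below 0 on both axes, Cenpk, Cks1b and Spc24 lie right of 0 and below it, and Melk and Smc4 lie left of 0 and above it. Top2a and Nusap1 are plotted by different probe sets in cells and kidney.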

How the data were processed

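Levels were measured on Affymetrix expression arrays, in 18 cell, 8 kidney and 8 liver samples, 1 array each. The deposited values are log2 levels per probe set that the authors made with GCRMA, which corrects the background by probe sequence and normalizes between arrays, per the submitters' processing notes. The version and settings of that step are not known here. The method pulls dim probe sets to a common low level, so differences of genes near the array median depend on its background step. Precision is limited by how many arrays a group has, since arrays carry no depth.

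Of 31099 rows, 57 control probe sets were left out, and 20826 probe sets with 1 gene symbol, 436 with several and 9780 with none were counted in the platform annotation. Only those with 1 symbol were named, and each gene was represented by its brightest probe set, averaged over every array in the fit. Differences were fitted in R 4.3.3 with limma 3.58.1 (lmFit, eBayes with a trend in the variance), with 1 fit for the 18 cell arrays, 1 for each organ and 1 for both organs together. P-values were adjusted by Benjamini-Hochberg over all genes tested, with a threshold of 0.05, and were tested on simulated data. Each SE is that of the fitted difference.

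The members, roles and other gene lists were chosen with earlier results of these data known. All members may be named. Values on every array are given for a panel of 9 genes and for the member with the smallest adjusted p of each role where a comparison held calls. Also named are members not called or moving against the others, other probe sets that disagree, and up to 3 genes of each other list with the smallest adjusted p. Alternatives were no filter, arrays centred on their medians, the mean of all probe sets, values below the array median set to it, robust variances, smaller sets of arrays, each array left out in turn, and the replicate number as a block. Same-numbered arrays deviated together at 6 h (correlations of 0.197 to 0.491) and at 72 h (0.167 to 0.317), the basis for pairing there. They did not at 24 h (-0.116 to 0.128), in kidney (-0.216 to 0.018) or in liver (-0.164 to 0.045). Arrays with different numbers reached 0.301 at 6 h and 0.275 at 72 h, which lies within the same-number ranges. At either time, the closest partner was the same-numbered array for only 4 arrays out of 6. These values do not establish the pairing. The replicates are labelled biological, and no probe sequence was used.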

Additional observations from a re-analysis of the deposited data

Results flagged for a closer look

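Of 68 sets of 4 organ arrays checked over the panel and role genes, 9 held an array far from the other 3. Chance flags about 1 in 20, but the genes share their arrays, so the sets are not independent and the 9 cannot be judged against that rate. In kidney, monuron replicate 4 was high for Aurkb (4.546), Ttk (3.504), Birc5 (3.804) and Plk1 (2.822), and control replicate 2 was low for Aurkb (5.047). In liver, monuron replicate 2 was low for Cdk1 (3.834), and control replicate 4 was high for Pttg1 (5.96), Top2a (4.828) and Cdc20 (2.778), the last of these below the array median.

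The monuron difference in cells changed between 24 and 72 h for 30 members, as tested in the fit of the 18 cell arrays. Among the panel genes the change was -1.1306 for Mki67, -1.0932 for Birc5, -1.0711 for Plk1, -0.8533 for Aurkb, -0.7569 for Cdc20 and -0.5559 for Ccnb1 on the log2 scale, below 0 in all of them. The liver difference minus the kidney difference was called for 20 members, and among panel genes it was 3.0269 for Cdc20, which was dim on all 8 liver arrays, 2.0217 for Ccnb1, 1.6916 for Aurkb and 1.4931 for Cks2. Ccnb1 and Aurkb lay near the array median on most liver arrays, so a fall as large as in kidney could hardly show there.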

How the results depend on the processing

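The counts of members called at 72 h, in DMSO cells between 6 and 24 h, in kidney, in liver, between the organs and for the change from 24 to 72 h stayed within 1.5 times their value under every alternative, except that the count between the organs, 20, became 8 with only genes above the array median on at least 2 arrays of each liver group, an alternative chosen after seeing the data. The count at 6 h, 0, became 8 with only the 6 h arrays and 12 without the 72 h arrays. The count at 24 h, 5, became 3 without the filter, 31 with only the 24 h arrays and 33 without the 72 h arrays. Between 24 and 72 h in DMSO cells the count of 8 became 4 without the filter and 28 without either 72 h array of replicate 3, an alternative chosen after seeing the data. The change from 6 to 24 h, 0, became 1 with the mean of all probe sets and 19 without the 72 h arrays. Leaving out 1 array gave 0 to 1 calls at 6 h, 2 to 21 at 24 h, 44 to 50 at 72 h, 45 to 53 and 3 to 22 over both intervals in DMSO cells, 0 to 3 and 20 to 39 for both changes, 31 to 38 in kidney, 0 in liver and 16 to 27 between organs. No share over all genes is given beside the counts with 1 array left out. At 24 h the count was 21 without monuron replicate 3 at 72 h, 10 and 9 without DMSO replicates 1 and 3 at 72 h, and 2 or 3 without any monuron replicate at 24 h or DMSO replicates 1 or 2. The cause was not tested, but leaving out 72 h arrays alters these counts only through the genes tested and the shared spread. For single genes 4339 values kept their side of the threshold, 291 lost a call, 278 gained one, and none reversed while called. With the replicate block, 0 members were called at 6 h, 7 at 24 h, 48 at 72 h, 50 and 8 over both intervals in DMSO cells, 0 and 29 for both changes, 33 in kidney, 0 in liver and 16 between the organs; no count moved by over 1.5 times. Dim kidney and liver values limit what can be measured: 11 members could not be tested in kidney and 31 in liver.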
